A study of Mus musculus with 6 samples.

Results

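Keratin genes of simple and differentiating epithelium were described in Lgr5-GFP-positive cells of mouse small intestinal organoids. The family was taken by symbol as 8 of the 56884 genes counted: *Krt20*, *Krt23*, *Krt8*, *Krt18*, *Krt19*, *Krt7*, *Krt80* and *Krt4*. A further 46 protein-coding keratin genes served as comparison. Organoids are epithelial cultures grown from intestinal tissue, and all of these carried Villin-CreERT2, Lgr5-EGFP-IRES-CreERT2 and Ythdf2fl/fl. The villin promoter drives the Cre recombinase CreERT2 across the intestinal epithelium, and the *Lgr5* allele adds CreERT2 and EGFP in stem cells. CreERT2 becomes active with 4-hydroxytamoxifen (4-OHT), given at 0.5 µM, and can then remove the floxed part of *Ythdf2*. Vehicle cultures received ethanol (EtOH) and carried the same alleles. Sorting followed on day 4 or day 6. Day 6 is held by 4 libraries, 2 for each label, and day 4 by 1 for each label. The labels do not say whether the day 6 libraries came from separate cultures or mice, so p-values measure the spread between these libraries, which may be technical. The age and sex of the mice are not given in the sources used here.

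Keratins are the intermediate filament proteins of epithelia. A filament forms only from a type I (acidic) keratin paired with a type II (basic) keratin. Simple epithelia such as the intestinal lining are built on the type II keratin Krt8 with its type I partners Krt18 and Krt19. Krt20 is a type I keratin of differentiated intestinal cells towards the villus, and Krt7 is a type II keratin of simple and ductal epithelia. Krt23 is a type I keratin, Krt80 a type II keratin linked to differentiating epithelia, and Krt4 a type II keratin best known from stratified mucosa. The question put to the data is how *Krt20*, the keratin of differentiated cells, compares with the general keratins between treatments.

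The promoters of 3 members are shown because 2 of them, *Krt20* and *Krt23*, rose with 4-OHT while *Krt18* did not pass the test. Each line gives the 250 bases before the gene's start, 5′ to 3′ on the gene's strand, from RefSeq on GRCm38.p6. Capitals mark matches to any of 5 short motifs. The windows are chr11:99438154-99438403 (minus strand, *Krt20*), chr11:99493121-99493370 (minus strand, *Krt23*) and chr15:102027966-102028215 (plus strand, *Krt18*).
Krt20: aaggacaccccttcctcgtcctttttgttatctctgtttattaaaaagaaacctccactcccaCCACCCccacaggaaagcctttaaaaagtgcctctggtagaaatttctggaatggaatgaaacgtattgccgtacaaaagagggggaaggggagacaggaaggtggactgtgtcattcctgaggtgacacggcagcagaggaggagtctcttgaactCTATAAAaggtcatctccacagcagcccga
Krt23: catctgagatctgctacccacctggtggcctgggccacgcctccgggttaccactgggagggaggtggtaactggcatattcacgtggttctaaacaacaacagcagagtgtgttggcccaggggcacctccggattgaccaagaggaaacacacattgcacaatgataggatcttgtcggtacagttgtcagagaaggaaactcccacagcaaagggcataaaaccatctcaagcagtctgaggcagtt
Krt18: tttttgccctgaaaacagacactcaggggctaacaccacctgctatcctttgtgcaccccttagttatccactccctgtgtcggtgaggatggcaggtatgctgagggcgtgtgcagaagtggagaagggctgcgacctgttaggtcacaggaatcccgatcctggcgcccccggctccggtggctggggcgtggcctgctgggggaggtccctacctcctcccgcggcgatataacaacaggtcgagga
All motifs were searched on both strands, and each share is of 32851 windows of this length. The TATA box was searched as TATAAA, and the *Krt20* window held it from position -29, counted back from the start, as 12.4% of windows do. The CDX family motif, for intestinal homeobox factors, was searched as TTTATNG. It matched on the opposite strand of the *Krt20* window from -30, overlapping the TATA match, and 9.81% of windows have one. The motif of the KLF and SP families was searched as CCACCC, which the *Krt20* window held from -187 and 28.1% of windows have. The *Krt23* and *Krt18* windows held none of the 5 motifs, nor did that of *Krt7*. The *Krt8* window held CCACCC on the opposite strand from -160 and from -137. The AP-1 motif, searched as TGANTCA, is in 6.75% of windows and in none of the 5 members found in the table. The HNF4 motif, searched as CAAAGTC, is in 3.84% of windows and likewise in none of the 5. *Krt19*, *Krt80* and *Krt4* had no entry there.

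The libraries held 14345379 to 21461835 gene counts. *Ythdf2*, the floxed gene, stood at 82.8 and 76.1 CPM with EtOH at day 6 and at 208 and 204 CPM with 4-OHT, where CPM are read counts scaled for the size and composition of each library. The targeted gene was thus higher, not lower, in the libraries labelled 4-OHT (log2 fold change 1.37, adjusted p 0.00180 in edgeR). Counts cover the whole gene, and which exons are floxed is not given in the sources used here. Each direction below is that of the libraries as labelled. The 7 epithelial identity genes, such as *Epcam* and *Cdh1*, summed to 3954.0 to 4958.9 CPM, in contrast to 5.40 to 10.4 CPM for 8 immune genes, 1.62 to 4.29 CPM for 8 fibroblast genes and 0.371 to 2.10 CPM for 5 endothelial genes. *Ptprc*, the pan-leukocyte gene, had 0 counts in all day 6 libraries. *Lgr5*, the sorted reporter's gene, was counted 4035 to 7182 times per library. The day 4 libraries had more reads outside annotated genes (6.19% and 6.70% of all entries) than the day 6 libraries (2.63% to 3.76%), and their labels carry library names from another number range. Day and any other difference between the library sets cannot be told apart.

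The keratins spanned a wide range of levels. Levels between genes were compared as TPM, which here are counts divided by the length of the gene's exons and scaled to the same total in each library. *Krt8* was the most abundant member in each library, with 3369.7 to 5972.4 TPM, and ranked between 9 and 20 among all genes. *Krt19* followed with 2707.1 to 4941.8 TPM and then *Krt18* with 1553.6 to 2370.4 TPM. The order *Krt8*, *Krt19*, *Krt18* was the same in all 6 libraries. *Krt7* had 103 to 171 TPM, *Krt23* 53.6 to 137 TPM and *Krt20* 7.72 to 302 TPM, so that *Krt20* changed its place. It lay below *Krt7* and *Krt23* in each EtOH library and above both in both day 6 libraries labelled 4-OHT. The place against *Krt7* depends on the length used, since the exons of *Krt7* cover 7049 bases over all annotated transcripts and 4094 in the longest. With the longest transcript of each gene, *Krt20* had 226 and *Krt7* 221 TPM in day 6 4-OHT replicate 1, but 188 and 211 TPM in replicate 2, where the order turned. *Krt4* (0.209 to 4.43 TPM) and *Krt80* (1.08 to 1.86 TPM) were near the lower end of what was tested. All 8 members passed the filter on low counts. The plot of CPM by library shows all 48 values.

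**Figure D1:**
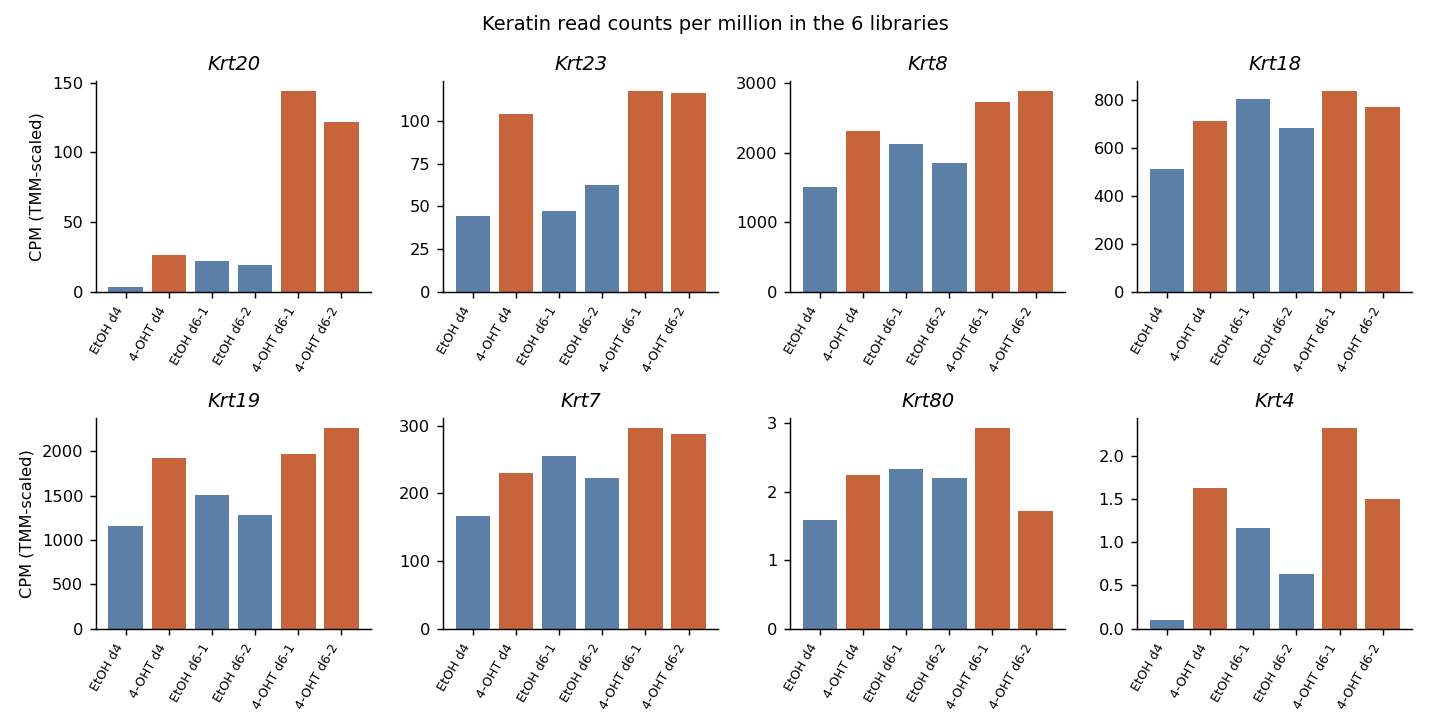
Bars give TMM-scaled CPM (linear axis from 0, a separate scale for each gene) of the 8 keratins in each of the 6 libraries, EtOH in blue and 4-OHT in orange, d4 and d6 being the day. *Krt20* reaches 144 and 122 CPM in the day 6 4-OHT libraries and stays at 26.6 CPM or below in the other 4, while *Krt18* overlaps between treatments at day 6.

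Type I and type II members kept a near-constant balance. Type I members (*Krt18*, *Krt19*, *Krt20*, *Krt23*) summed to 4323.9 to 7512.2 TPM and type II members (*Krt4*, *Krt7*, *Krt8*, *Krt80*) to 3474.1 to 6141.9 TPM. The ratio of type I to type II was 1.24 and 1.22 in the day 6 EtOH libraries and 1.22 in both 4-OHT libraries of that day. The day 4 ratio was 1.24 (EtOH) and 1.29 (4-OHT). Both sums were higher in each 4-OHT library than in each EtOH library, as the stacked plot of the sums shows. Among type I keratins the shares moved. *Krt18* made up 40.2% and 39.8% of the type I sum with EtOH at day 6, against 33.3% and 29.0% with 4-OHT. *Krt19* made up 58.0% and 57.9% with EtOH and 60.5% and 65.8% with 4-OHT. *Krt20* made up 0.833% and 0.840% with EtOH and 4.24% and 3.38% with 4-OHT. *Krt8* was 96.7% to 97.2% of the type II sum in all 6 libraries. These sums over members are descriptions and were not tested.

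**Figure D2:**
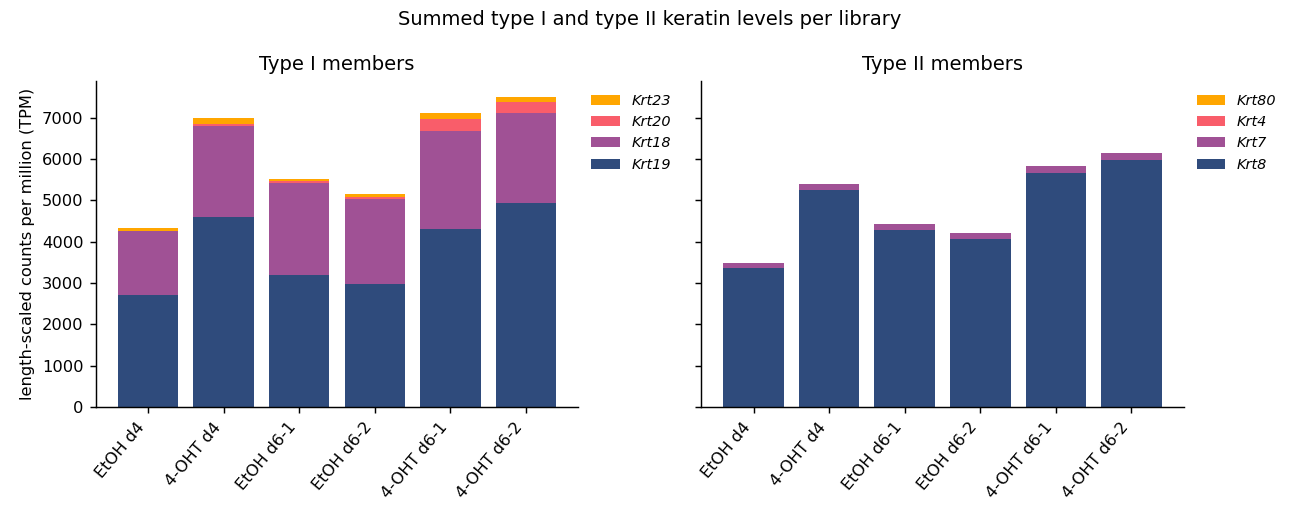
Stacked bars give TPM (scaled by gene length, linear axis from 0) of the type I members (left) and type II members (right) in each library. *Krt19* and *Krt18* form nearly all of the left bars and *Krt8* the right ones, and the *Krt20* segment can be seen in the day 6 4-OHT libraries.

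The day 6 libraries were compared to ask which keratins differ between the treatments. *Krt20* and *Krt23* rose with 4-OHT, while *Krt8*, *Krt18*, *Krt19*, *Krt7*, *Krt80* and *Krt4* did not pass the test. The test was the quasi-likelihood F test of edgeR on the counts, p was adjusted by Benjamini-Hochberg over 14066 genes, and a gene is called when its adjusted p is under 0.05. Of the 8 members 2 were called higher, beside 2.27% of all genes tested, and 0 were called lower, beside 0.235%. Of the members, 4 had an unadjusted p under 0.05, as did 10.3% of all genes. DESeq2 called 3 members, all higher, beside 505 of 14066 genes in either direction. All 8 log2 fold changes were above 0, with a median of 0.55 against −0.013 over all genes tested. In 6 members both 4-OHT libraries lay above both EtOH libraries, as in 20.4% of all genes tested, and in 0 members they lay below, as in 18.4%. More cells with a keratin and more of its RNA per cell cannot be told apart in these bulk libraries.

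*Krt20* (ENSMUSG00000035775) is a minus-strand gene of chromosome 11, from 99319227 to 99328985 (GRCm39, as for all members). It had 426 and 336 counts, or 22.6 and 19.5 CPM, in the day 6 EtOH libraries. In those labelled 4-OHT it had 3095 and 2269 counts, or 144 and 122 CPM. Both 4-OHT libraries were high and both EtOH libraries low, with no overlap. The mean rose from 21.0 ± 2.18 to 133 ± 15.9 CPM (SD, n = 2 each). The rise was 6.30-fold, or 2.65 in log2 (SE 0.19, 95% interval 2.24 to 3.07), and edgeR gave it an adjusted p of 1.0e-04. In rank by TPM it went from 3377 and 3829 with EtOH to 409 and 529 with 4-OHT. No other gene's exons overlap it in the GENCODE M39 annotation.

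*Krt23* (ENSMUSG00000006777) lies 37887 bases from *Krt20* on the same strand, at 99366873 to 99383963. It had 47.5 and 62.3 CPM with EtOH at day 6, against 117 and 116 CPM with 4-OHT, again without overlap. The mean rose from 54.9 ± 10.5 to 117 ± 0.734 CPM (SD, n = 2 each). This 2.13-fold rise, 1.09 in log2 (SE 0.18, 95% interval 0.69 to 1.49), had an edgeR adjusted p of 0.0114.

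The 3 general keratins of simple epithelium had smaller values that differed among themselves. *Krt19* (ENSMUSG00000020911; chromosome 11, 100031636 to 100039491) had 1503.2 and 1285.4 CPM with EtOH and 1967.9 and 2263.7 CPM with 4-OHT at day 6. Its libraries did not overlap, but edgeR did not call it (log2 difference 0.60, SE 0.21, adjusted p 0.263). DESeq2 gave the same value of 0.60 with an adjusted p of 0.0363. The lncRNA gene *Gm73150* on the other strand overlaps 17.7% of its exon bases in GENCODE M39, and reads there can be left uncounted if counting ignored strand. *Krt8* (ENSMUSG00000049382; chromosome 15, 101905133 to 101912917) had 2124.9 and 1853.1 CPM with EtOH and 2725.9 and 2887.7 CPM with 4-OHT. These groups did not overlap either, and edgeR did not call it (log2 difference 0.49, SE 0.21, 95% interval 0.02 to 0.97, adjusted p 0.456). A processed pseudogene, *Krt8-ps*, is annotated, so part of the *Krt8* reads may map to both, and its counts are uncertain to that extent. *Krt18* (ENSMUSG00000023043), a type I gene, lies 23697 bases from *Krt8* on chromosome 15 at 101936615 to 101940462. It had 806.9 and 683 CPM with EtOH and 839.2 and 774 CPM with 4-OHT, so its groups overlapped. The log2 fold change was 0.11 (SE 0.18), with a 95% interval of −0.29 to 0.51.

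The remaining type II members did not pass at day 6. *Krt7* (ENSMUSG00000023039; chromosome 15, 101308924 to 101328194) had 255 and 223 CPM with EtOH and 297 and 288 CPM with 4-OHT, without overlap. The log2 difference of 0.29 (SE 0.16) did not pass in edgeR (adjusted p 0.622). *Krt4* (ENSMUSG00000059668; chromosome 15, 101826970 to 101833170) had 22 and 11 counts with EtOH and 50 and 28 with 4-OHT. The log2 fold change of 1.07 (SE 0.52) was close to that of *Krt23*, but its 95% interval ran from −0.08 to 2.23. *Krt80* (ENSMUSG00000037185; chromosome 15, 101245325 to 101268043) had 44 and 38 counts with EtOH and 63 and 32 with 4-OHT. The 4-OHT libraries lay on both sides of the EtOH libraries, and the log2 fold change of 0.04 had an interval of −0.89 to 0.98.

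**Figure D3:**
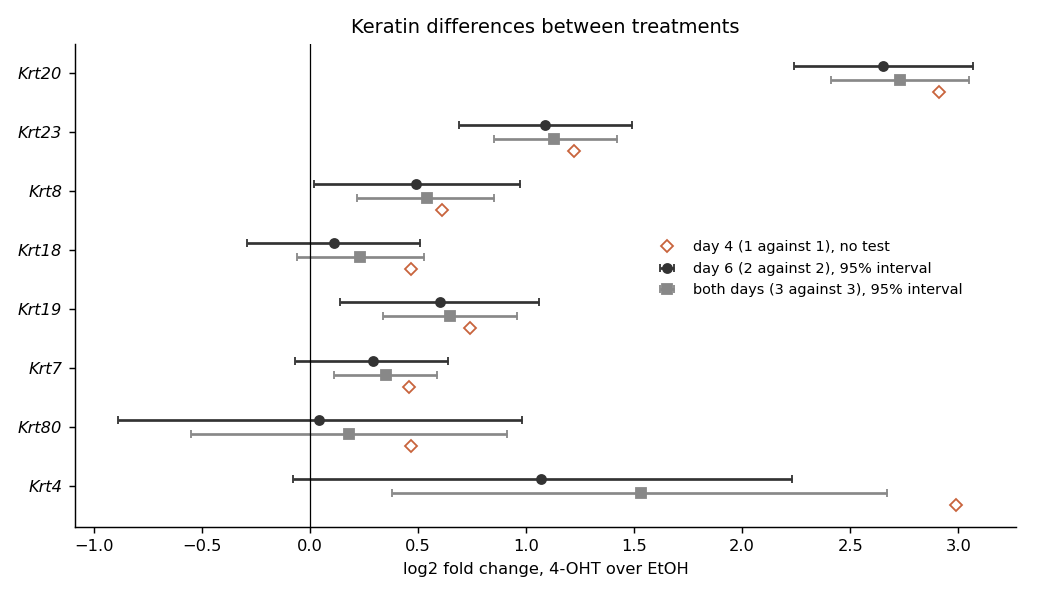
Points give each keratin's log2 fold change, 4-OHT over EtOH, from the 4 day 6 libraries (circles) and from all 6 libraries with day as a term (squares), with bars for the 95% interval. Open diamonds are the day 4 values from 1 library each, and *Krt20* stands furthest to the right in the day 6 and both-day values, while the *Krt4* diamond rests on 2 EtOH counts.

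Day 4 has 1 library per label, so its values compare these libraries only and no test was made. All 8 keratins were higher in the library labelled 4-OHT. *Krt20* had 67 counts (3.44 CPM) with EtOH and 392 counts (26.6 CPM) with 4-OHT. The scaled ratio was 7.75 (exact binomial 95% bounds 5.97 and 10.2, for counting error alone). *Krt23* had 44.6 and 104 CPM, a ratio of 2.33 (2.14 to 2.54). *Krt4* had 2 counts with EtOH and 24 with 4-OHT, a ratio of 15.9 whose counting interval ran from 3.95 to 139. These 3 members were at least 2-fold higher, as were 4.73% of the 12707 genes that average 1 CPM or more. *Krt4* reached that average only through its 4-OHT libraries. *Krt19* (1.67), *Krt8* (1.53), *Krt18* (1.39) and *Krt7* (1.38) had smaller ratios. *Krt80* had 31 and 33 counts and a ratio of 1.41, with a counting interval of 0.837 to 2.38.

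All 6 libraries together, with day as a term, set 3 libraries labelled 4-OHT against 3 labelled EtOH. *Krt20*, *Krt23* and *Krt19* were called higher, 3 of 8 members beside 3.67% of 14060 genes tested, and 0 were called lower, beside 0.718%. Of the members, 6 had an unadjusted p under 0.05, as did 16.1% of genes. DESeq2 called 4 members, all higher, beside 856 of 14060 genes in either direction. The fit contains the day 6 libraries, so it is no separate check of them. For *Krt20* the log2 rise was 2.73 (SE 0.14; edgeR adjusted p 1.0e-05). With no day term it was 2.69 and did not pass (edgeR adjusted p 0.0939). For *Krt23* it was 1.13 (SE 0.13; edgeR adjusted p 9.1e-04) and for *Krt19* 0.65 (SE 0.14; edgeR adjusted p 0.0291). The *Krt19* call was lost without any of 5 single libraries. Its edgeR adjusted p was 0.0771 without day 6 EtOH replicate 2, 0.0614 and 0.113 without day 6 4-OHT replicate 1 or 2, and 0.278 and 0.263 without the day 4 EtOH or 4-OHT library. *Krt8* had 0.54 (SE 0.14) and was not called in edgeR (adjusted p 0.0702). Its call depends on the form of the test: the older quasi-likelihood of edgeR, which was the first one run, gave an adjusted p of 0.0349, and DESeq2 gave 2.2e-04. *Krt7* had 0.35 (adjusted p 0.120 by edgeR, and 0.0376 without day 6 EtOH replicate 1), *Krt18* 0.23, *Krt80* 0.18 and *Krt4* 1.53 (adjusted p 0.160 by edgeR). In 5 members all 3 4-OHT libraries lay above all 3 EtOH libraries, as in 11.1% of genes tested, and in 0 members all lay below, as in 9.02%. *Krt7* missed this because the day 4 4-OHT library (229.9 CPM) lay below the day 6 EtOH replicate 1 (255 CPM). *Krt4* was among the 5, but its EtOH libraries, with 22, 11 and 2 counts, would not alone have passed the filter on low counts. Its place among the 5, and among the 6 members with an unadjusted p under 0.05, therefore carries no weight.

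The keratins were also compared between days in the same fit. *Krt20* alone was called, 1 of 8 members beside 0.562% of genes in either direction and 0.327% called higher at day 6. An unadjusted p under 0.05 was found for 3 members and 12.6% of genes. Day cannot be told apart here from other differences between the library sets. *Krt20* was higher in the day 6 than in the day 4 libraries by 2.43 in log2 (SE 0.16, edgeR adjusted p 3.6e-04). The value was 3.44 CPM at day 4 and 21.0 CPM (mean) at day 6 with EtOH, and 26.6 and 133 CPM with 4-OHT. The day 4 4-OHT library lay above both day 6 EtOH libraries. The other 7 members had log2 fold changes of 0.20 (*Krt19*) to 0.85 (*Krt4*), and *Krt7* (0.43, adjusted p 0.163 by edgeR) was called by DESeq2 with an adjusted p of 0.0495. DESeq2 called 2 members between days, beside 318 of 14060 genes. Whether the 4-OHT difference itself changed between days was tested as an interaction. It was called for 0 of 8 members and 0 of 14060 genes (0.00%) by edgeR, with 0 members and 228 genes (1.62%) at an unadjusted p under 0.05, and DESeq2 called 0 members and 6 genes. Each day 4 group holds 1 library and takes its spread from day 6. The lack of calls therefore does not show that the 4-OHT difference was the same on both days. For *Krt20* the difference of the log2 fold changes, day 6 minus day 4, was −0.29 with a 95% interval of −1.06 to 0.48. For *Krt4* it was −2.83 (−5.97 to 0.32), which rests on the 2 counts of the day 4 EtOH library.

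*Krt20* was then set against the general keratins within each library, where library scaling drops out. Gene length still enters each percentage and drops out only of the difference between treatments. Its CPM was 1.65% and 1.66% of the geometric mean of *Krt8*, *Krt18* and *Krt19* in the day 6 EtOH libraries. With 4-OHT it was 8.72% and 7.08%. The day 4 values were 0.356% (EtOH) and 1.81% (4-OHT). The 4-OHT libraries were thus above the EtOH libraries of their day. On the log2 scale the difference, 4-OHT minus EtOH, was 2.25 at day 6 (SD of 0.01 within EtOH and 0.21 within 4-OHT, n = 2 each) and 2.34 at day 4. The day 6 difference was 2.06 with *Krt19* alone as the reference and 2.35 with *Krt8* and *Krt18*. The general keratins also shifted against each other. The read count ratio of *Krt8* to *Krt18* was 2.63 and 2.71 for EtOH at day 6, against 3.25 and 3.73 for 4-OHT. The day 4 ratio was 2.96 (EtOH) and 3.26 (4-OHT). *Krt19* had 1.86 and 1.88 times the counts of *Krt18* with EtOH at day 6, and 2.35 and 2.92 times with 4-OHT. Its day 4 ratios were 2.25 and 2.70. Both ratios were higher in each 4-OHT library than in each EtOH library, and no p is given, since the members were chosen with results known.

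**Figure D4:**
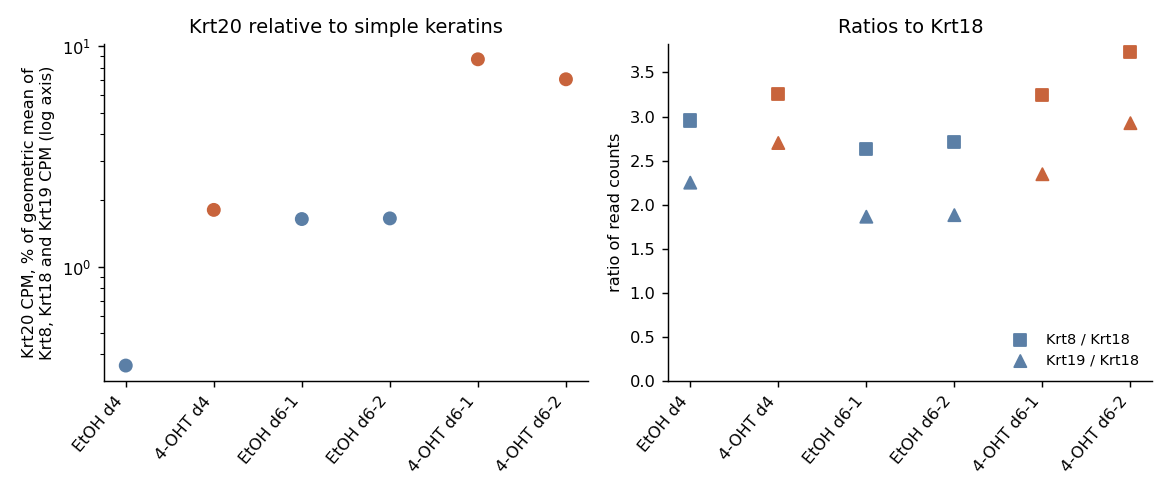
Left, *Krt20* CPM as a percent of the geometric mean of *Krt8*, *Krt18* and *Krt19* CPM (log axis) in each library. Right, read count ratios of *Krt8* (squares) and *Krt19* (triangles) to *Krt18* (linear axis from 0), EtOH in blue and 4-OHT in orange. *Krt20* runs from 0.356% in the day 4 EtOH library to 8.72% in a day 6 4-OHT library.

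The genes whose levels across the 6 libraries were most like those of *Krt20* were found by the Pearson correlation of log2 CPM among 10121 other protein-coding genes averaging 5 CPM or more. The values describe 6 libraries that all genes share. They were *Guca2b*, which encodes uroguanylin (r = 0.9982), *Cdhr5*, a brush border cadherin (0.9979), *Galnt1*, a glycosyltransferase (0.9935), *Anxa10*, an annexin (0.9933), and *Hpd*, a tyrosine catabolism enzyme (0.9930). *Guca2b* had 34.5 and 28.5 CPM with EtOH and 102.7 and 86.3 CPM with 4-OHT at day 6, and 11.4 and 38.5 CPM at day 4. At day 6 *Guca2b* rose by 1.58 in log2 (edgeR adjusted p 0.00205), *Anxa10* by 2.87 (2.7e-04), *Hpd* by 1.11 (0.0320) and *Cdhr5* by 0.89 (0.0148). These genes were picked for likeness to *Krt20* over libraries that include the day 6 ones. Their direction was thus largely set by that choice, and their p-values are no separate support. *Galnt1* had 0.30 and was not called (edgeR adjusted p 0.569), so a like profile here does not mean a like size of difference. For *Krt7* the nearest genes were *Aplp1*, *Gata5*, *Pomk*, *Capn1* and *Cyp3a11* (r = 0.9907 to 0.9944), and for *Krt8* they were *Nudcd3*, *Ttc33*, *Fam32a*, *Pofut4* and *Abhd6* (0.9889 to 0.9925). Among members, *Krt20* correlated with *Krt7* and *Krt8* at 0.97 and with *Krt80* at 0.51. *Krt18* correlated with *Krt8* at 0.85 and with *Krt23* at 0.58.

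Most keratins outside the family were nearly silent. Of the 46, 12 had 0 counts in all 6 libraries, 25 stayed under 10 counts in each, and 9 reached 10 counts in at least 1. Of the keratins known from basal or stratified epithelium, *Krt5*, *Krt14*, *Krt13* and *Krt6a* had at most 4 counts in any library. Others of that kind, such as *Krt15* and *Krt10*, had more. *Krt87* had the highest count, with 153 and 99 for EtOH at day 6 and 78 and 62 for 4-OHT, and lay above the members *Krt4* and *Krt80* in each library. *Krt15* had 84 and 44 counts with EtOH and 33 and 47 with 4-OHT at day 6, and 80 with EtOH and 86 with 4-OHT at day 4. *Krt10*, the other gene with at least 30 counts in a library, had 33 and 36 with EtOH and 27 and 34 with 4-OHT. These 3 were named after their values were seen. Of 4 other keratins abundant enough to test at day 6, 0 were called by edgeR or DESeq2. An unadjusted p under 0.05 was found for 1, *Krt87* (edgeR adjusted p 0.225), beside 10.3% of all genes. Of these 4, 1 had a log2 fold change above 0 and 3 below, with a median of −0.57.

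Genes that work with keratins were taken as lists. Of 18 cytolinker and desmosome genes, which tie keratin filaments to junctions, 17 were tested at day 6. The edgeR test called 0, beside 2.51% of all genes in either direction. An unadjusted p under 0.05 was found for 8, beside 10.3% of all genes, and DESeq2 called 3, beside 505 of 14066 genes. The median log2 fold change was 0.22. With all 6 libraries 3 were called higher and 1 lower, beside 4.39% of genes in either direction. *Ppl*, the cytolinker periplakin, rose by 1.00 (SE 0.16, log2), *Plec*, the cytolinker plectin, by 0.79 (SE 0.14) and *Perp*, a desmosome protein, by 0.47 (SE 0.11). *Pkp1*, the desmosomal plakophilin, fell by 0.94 (SE 0.17). *Dsp*, desmoplakin, to which keratins anchor, had 0.21 (SE 0.16) and was not called. *Ppl*, *Plec*, *Perp*, *Pkp1* and *Dsp* were named after their values were seen.

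Of 24 genes of the cornified envelope and stratified differentiation, 23 were in the files, 7 had 0 counts throughout and 7 were tested at day 6. Of those 7, 4 rose and 0 fell, beside 2.27% and 0.235% of all genes, with a median of 0.74 against −0.013 over all genes. *Ly6d* rose by 4.08 (SE 0.40, log2), from 10 and 10 counts with EtOH to 212 and 171 with 4-OHT. *Anxa8* rose by 3.85 (SE 0.84), from 0 and 7 counts to 85 and 33. *Anxa8* passed the filter on low counts only through the 4-OHT libraries, so its place among the 4 carries no weight. *Sprr1a*, which encodes a small proline-rich envelope protein, rose by 2.23 (SE 0.21), from 203 and 197 to 1240 and 868 counts. *Sprr2a3* rose by 0.74 (SE 0.16), and its counts are uncertain because of near-identical copies. *Ivl*, *Flg* and *Krtdap*, known from the epidermis, had at most 6 counts in a library. Others of this list had more: *Tgm1* and *Cdsn* reached 14 counts and *Dmkn* 11. *Sbsn* had 12 to 53 counts and was tested but not called (log2 fold change −0.23, SE 0.55). Among 16 other intermediate filament genes 10 were tested and 1 rose, beside 2.27% of all genes. The list as a whole had 4 values above 0 and 6 below, with a median of −0.23. Of the 4, *Sync* (2.35) had 4 and 3 counts with EtOH and 25 and 16 with 4-OHT. It passed the filter on low counts only through the 4-OHT libraries, so its place there carries no weight. The gene that rose was *Nes*, which encodes nestin, with 115 and 203 counts with EtOH, 1049 and 1055 with 4-OHT, and a log2 fold change of 2.56 (SE 0.29, adjusted p 0.00164 by edgeR). *Vim*, vimentin, had −0.23 (SE 0.25) and *Lmna*, lamin A/C, 0.37 (SE 0.16), neither called.

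Of the lists of other epithelial cell types, that of enterocytes had the most calls at day 6. Of its 20 genes, without *Krt20*, 14 rose and 0 fell, beside 2.27% and 0.235% of all genes, with a median log2 fold change of 1.77 against −0.013 over all genes. *Apoa1* (3.25), *Apoc3* (2.64), *Ada* (2.49), *Fabp1* (2.39) and *Alpi* (2.27) were the largest. The list's summed level was 2927.1 and 3134.9 CPM with EtOH and 7321.8 and 5908.3 CPM with 4-OHT at day 6, and at day 4 2549.2 and 3529.9 CPM. No enterocyte gene was at 0 in any library, and the part of enterocyte content in the rise of *Krt20* was not tested. The 19 stem cell genes summed to 7652.0 and 7366.4 CPM with EtOH and 5599.4 and 5205.6 CPM with 4-OHT at day 6. *Olfm4*, the most abundant of them, went from 3304.4 and 2243.8 CPM to 1319.9 and 984 CPM and makes up most of that difference. *Olfm4* (−1.27, SE 0.26) and *Slc14a1* (−2.82, SE 0.55) fell and 0 rose, while the list had 6 values above 0 and 13 below, with a median of −0.15. *Slc14a1* had 148 and 58 counts with EtOH and 23 and 9 with 4-OHT. Its 4-OHT libraries alone would not have passed the filter on low counts, so its place among the genes that fell carries no weight. *Igfbp4* had 0.62 at day 6, called by DESeq2 and not by edgeR, and rose over both days (edgeR adjusted p 0.00856). Of 10 goblet cell genes, *Zg16* (2.75, SE 0.27) and *Clca1* (1.24, SE 0.23) rose at day 6, the latter a member of a family of similar genes. The list had 4 values above 0 and 6 below, with a median of −0.23, and its summed level was 3404.8 and 3498.8 CPM with EtOH and 2903.3 and 2612.6 CPM with 4-OHT. In the tuft cell list *Dclk1* (−2.24, SE 0.48) fell, the 6 tested genes had a median of −1.50, and 3 of 10 genes were at 0 in all libraries. All 6 tested genes had values below 0. An unadjusted p under 0.05 was found for 5, beside 10.3% of all genes, and DESeq2 called 3, beside 505 of 14066 genes. Among 10 Paneth cell and 10 enteroendocrine genes 0 were called at day 6 by edgeR or DESeq2. An unadjusted p under 0.05 was found for 4 and 1 of them, beside 10.3% of all genes. At day 4, where no test was made, 9 of 10 Paneth genes and 8 of 9 enteroendocrine genes were at least 2-fold higher in the 4-OHT library, beside 4.73% of all genes. Of the Paneth genes, *Mptx2* passed the filters of both days only through its 4-OHT libraries (at day 4, 0 counts with EtOH and 11 with 4-OHT). Its place in the Paneth counts of either day therefore carries no weight. The Paneth genes' summed level at day 4 was 414 CPM with EtOH and 1735.0 CPM with 4-OHT. At day 6 the treatments overlapped, with 2989.5 and 2112.2 CPM for EtOH and 5286.8 and 2106.4 CPM for 4-OHT. The enteroendocrine sums overlapped likewise at day 6 (454 and 363 CPM with EtOH, 688 and 362 CPM with 4-OHT). The part of these cell types in the keratin values was not tested. The plot of the lists sets the day 6 values beside the keratins.

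**Figure D5:**
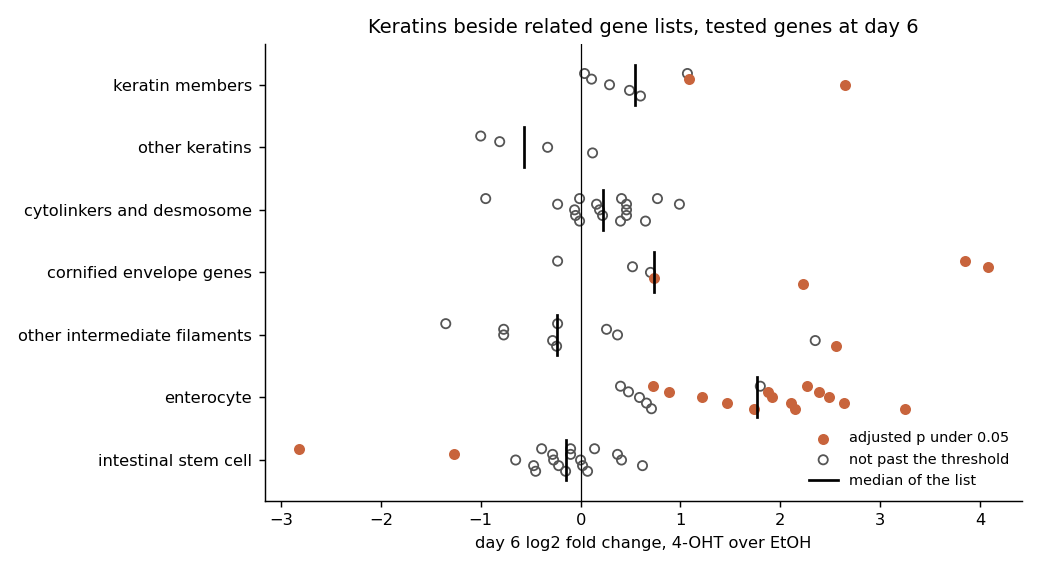
Each point is the day 6 log2 fold change, 4-OHT over EtOH, of 1 tested gene, filled where its adjusted p is under 0.05, and the vertical bar is the median of the list. Of the keratin members 2 are filled, and the enterocyte list lies to the right with a median of 1.77.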

How the data were processed

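Per the labels' protocols, RNA was extracted from sorted cells, messenger RNA was selected by its poly-A tail, and libraries were primed with random hexamers. No molecular identifiers are mentioned. The authors deposited whole-number read counts per gene, 1 file per library, after 4 summary lines that stayed out of all totals. These lines held 19.3% to 26.7% of entries. STAR and the mouse build mm39 come from the submitters' processing notes. The annotation release and strand setting are not given in the sources used here. Symbols and positions are from GENCODE M39 (GRCm39), which matched 56323 identifiers with 99.96% of the counts. Day 6 replicates differed by more than sampling noise (chi-square per degree of freedom 23.6 and 16.5) and were kept apart.

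Counts were tested with edgeR 4.0.16 (quasi-likelihood with adjusted deviances) in R 4.3.3, after TMM scaling and filterByExpr (minimum count 10) by treatment label. The day 6 fit used 4 libraries, and the other fits all 6. The standard error is the absolute log2 fold change over the square root of F. Day 4 values used a prior count of 2. The code was tested on simulated data. Some choices in these fits were made after results had been seen. The first fits used edgeR's default, older quasi-likelihood form. At day 6, 5 edgeR settings were then compared (302 to 353 genes called), and the form with adjusted deviances was adopted because its count of 353 equals that of an earlier analysis of these data. It is therefore no independent repeat of that count. The low count filter of the 6-library fits was first grouped by label and day, and was regrouped by label for the same reason. Both first choices are kept as alternatives. The older form calls *Krt8* over both days, which the adopted form does not, and both first choices move the count of genes called between days. Alternatives were another scaling, other filters, DESeq2 1.42.0, a replicate block, other sets of libraries and the 2 first choices. The older form, the other filter grouping, and leaving out libraries in the day, interaction and type I to type II comparisons were added after seeing the data. Named genes were the members, *Ythdf2*, up to 5 called genes per list by size, and the 5 genes most like *Krt20*, *Krt7* and *Krt8*. Other genes in the text, such as *Lgr5*, *Ptprc*, *Dsp*, *Vim*, *Lmna*, *Igfbp4*, *Ivl*, *Flg*, *Krtdap*, *Sbsn*, *Tgm1*, *Cdsn*, *Dmkn* and the keratins outside the family, fall outside that rule and were chosen after their values were seen. Members and lists were chosen with earlier results of these data known.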

Additional observations from a re-analysis of the deposited data

How the results depend on the processing

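At day 6, *Krt20* and *Krt23* were called under all 11 alternatives, and DESeq2 added *Krt19*. Without single libraries *Krt18* ran from −0.01 (without EtOH replicate 2) to 0.24 and *Krt80* from −0.41 (without 4-OHT replicate 1) to 0.37, and over both days from −0.03 to 0.41, neither called. The count of all genes at day 6 was 839 with a replicate block and 145 to 456 without single libraries, against 353. Leaving out a library leaves 1 in an arm, which is assumed to vary like the rest. Over both days it was 361 with no day term, with 1 keratin called, and 358 to 676 without single libraries, against 617, with 2 to 4 keratins called. *Krt8* over both days passed with the older quasi-likelihood first used (adjusted p 0.0349, 4 keratins called), with no filter (0.00530) and by DESeq2 (2.2e-04), but not with the filter by the 4 groups first used (0.0583), all by Benjamini-Hochberg. Between days it was 182 with no filter, 318 by DESeq2 (2 keratins), 50 with the older quasi-likelihood, 119 with the filter by the 4 groups and 15 to 490 without single libraries, against 79. The interaction gave 6 genes by DESeq2 and 0 to 28 without single libraries, with 0 keratins called under each, and *Krt23* ran from −0.32 to 0.06 (without EtOH replicate 2). Over both days the replicate block gave 873 genes and the same number of keratins, 3. The labels do not say that replicate numbers pair libraries (same-numbered deviations correlated at 0.266 across genes). The *Krt20* contrast was 2.10 to 2.40 without single libraries. The type I to type II difference kept within the replicate spread. *Krt4* and *Krt80*, with 2 to 63 counts per library, are limited by depth.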
